A study of Mus musculus with 5 samples.

Results

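Nuclear-encoded genes of oxidative phosphorylation were followed in mouse epidermis treated with forskolin or cAMP. They were chosen by symbol and annotation and by no measured value: protein-coding genes outside the mitochondrial chromosome with symbols starting in Ndufa, Ndufb, Ndufc, Ndufs, Ndufv, Uqcr, Atp5 or Cox4 to Cox8, together with Sdha, Sdhb, Sdhc, Sdhd, Cyc1 and Cycs. The rule gave 91 of the 21667 genes listed. By role these were 7 core and 29 accessory subunits of complex I, 7 complex I assembly factors, 4 genes of complex II, 9 of complex III, the cytochrome c gene Cycs, 17 of complex IV and 17 named for ATP synthase. The last group, called ATP synthase genes below, was set by the Atp5 symbol alone and can hold genes that are not subunits.

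Oxidative phosphorylation makes ATP on the inner mitochondrial membrane. Electrons from NADH enter at complex I and those from succinate at complex II, pass through complex III and cytochrome c to complex IV, and the proton gradient built on the way drives ATP synthase. Most subunits are encoded in the nucleus and a small core is encoded by mitochondrial DNA, so the complexes need both genomes. In other tissues, promoters of the nuclear genes are known to bind NRF1, GABP, YY1 and, for some of them, CREB, and in skin mitochondrial respiration has been linked to keratinocyte differentiation.

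The epidermis came from wildtype C57BL/6 male mice at postnatal day 49, which the labels also give as 7 weeks. Forskolin (10 µM), a plant diterpene that activates adenylyl cyclase, was used in 2 libraries, called forskolin 1 and 2. cAMP itself (1.325 mM), the product of that enzyme, was used in 2 libraries, called cAMP 1 and 2. Both agents were put on back skin 3 times over 5 days in a vehicle of DMSO and PLO lotion, and the study asked what lies downstream of Creb in hair follicle activation. The control is 1 library labelled untreated, and the labels do not say whether that skin received the vehicle, so the agent and the lotion cannot be told apart in a comparison with it. The tissue was total epidermis, freed from whole skin by dissection and overnight trypsin, so each library pools all cell types of the layer, and fewer cells of a type and less RNA per cell cannot be told apart. Nothing in the labels ties the libraries to different mice, and each p-value therefore measures only how far these libraries spread, which may be technical. That spread was mostly shared over genes of like level, so an SE or interval is not the spread of its gene alone.

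The libraries differed in composition, the control most of all. Transcripts of nuclear genes, leaving out pseudogenes and rRNA, made up 31.4% and 34.8% of the listed reads with forskolin, 38.0% and 25.9% with cAMP, and 7.90% in the control, while mitochondrial genes took 50.7% and 45.6%, 43.1% and 58.0%, and 69.3%. Estimated depths ran from 34178100 to 51672400 reads. Values are in CPM (counts scaled to a common library total), so a low nuclear share lowers each nuclear gene in the control. The same values were also divided by size factors computed as medians of ratios (1.41 and 1.31 with forskolin, 1.64 and 1.12 with cAMP, 0.325 in the control), which sets the typical gene equal between libraries, and both versions are given, since the median of all genes against the control differs widely between the scalings. Markers of the tissue were present: Krt14, a basal keratinocyte keratin, stood between 1057 and 2456 CPM in treated libraries and at 271 CPM in the control, and Krt10, a suprabasal keratin, between 575 and 1302 CPM and at 693 CPM.

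Summed over the 91 genes, the deposited values were 3087 and 2884 CPM with forskolin, 6718 and 3725 CPM with cAMP, and 706 CPM in the control. All 4 treated libraries lay above the control, and both cAMP libraries above both forskolin libraries. As a share of nuclear transcripts the sum was 1.06% and 1.03% with forskolin, 1.87% and 1.54% with cAMP, and 0.980% in the control. On that scale the forskolin libraries lay close to the control and the cAMP libraries stayed above the other 3. After size-factor scaling the sums were 2183 and 2198 with forskolin, 4108 and 3340 with cAMP, and 2171 in the control.

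**Figure D1:**
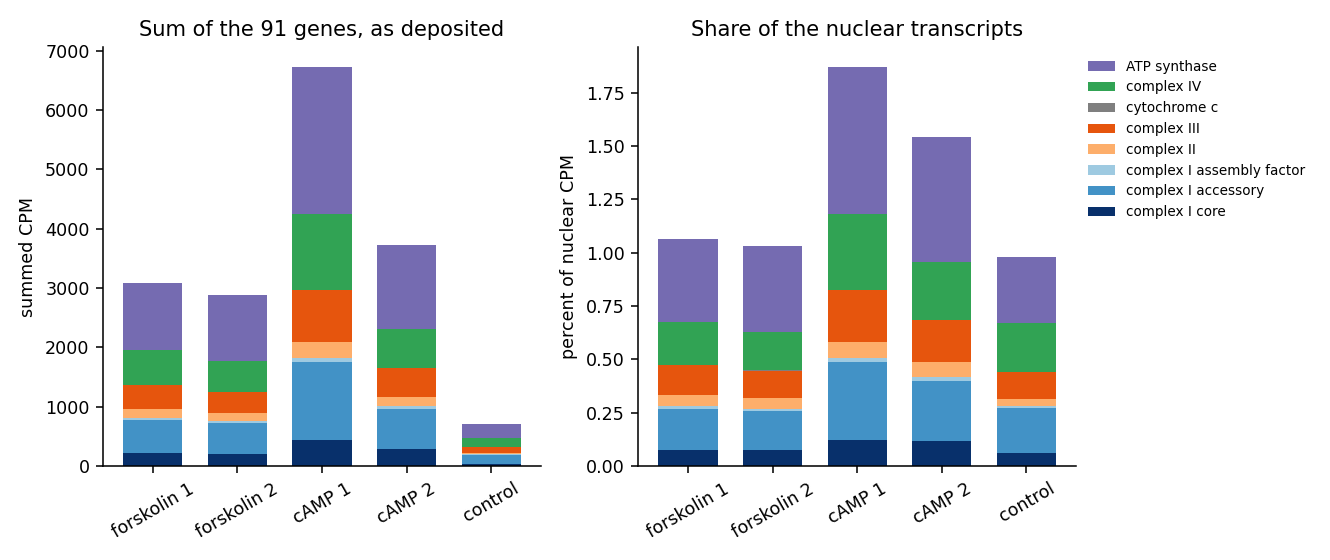
Summed CPM of the 91 genes in each library (left, vertical axis in CPM) and the same sum as a percent of nuclear CPM (right), stacked by role. The left bars stand at 3087 and 2884 CPM for forskolin, 6718 and 3725 CPM for cAMP and 706 CPM for the control, and the right bars at 1.06% and 1.03%, 1.87% and 1.54%, and 0.980%.

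ATP synthase genes made up 36.3% and 38.8% of it with forskolin, 36.8% and 38.1% with cAMP, and 31.5% in the control. Complex I accessory subunits made up 17.95% and 17.8% with forskolin, 19.5% and 18% with cAMP, and 21.7% in the control. Complex III genes stood between 12.7% and 13.1% in all 5 libraries. The control held a smaller share of ATP synthase genes and a larger share of accessory complex I genes than any treated library, with no replicate of the control to give its spread.

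Levels were compared between genes per kilobase of transcript, as CPM per kb. By the mean over the 4 treated libraries, the 5 highest were Atp5b, Atp5a1, Cox7b, Cox4i1 and Atp5g3. Atp5b, the catalytic beta subunit of ATP synthase (ENSMUSG00000025393, chromosome 10, 128083273 to 128090391, plus strand), stood at 258 and 387 CPM per kb with forskolin, 688 and 332 CPM per kb with cAMP, and 44.3 CPM per kb in the control. Atp5a1, its partner alpha subunit, stood at 195 and 192 CPM per kb with forskolin, 394 and 236 CPM per kb with cAMP, and 46.9 CPM per kb in the control. In both, the control was lowest and cAMP 1 highest, but per kb cAMP 2 of Atp5b lay below forskolin 2, while by CPM it lay above, at 422 against 346 CPM. Their order relative to each other turned round in the control.

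Forskolin against control asked how the genes stood in skin given an adenylyl cyclase activator. As deposited, limma (2-sided, Benjamini-Hochberg adjusted p under 0.05 over all genes) called 70 of 89 tested genes higher with forskolin and 0 lower, where 66.3% of all 13764 tested genes were higher and 0.341% lower. Their median log2 change was 1.81, against 1.69 for all tested genes. After size-factor scaling, limma called 8 of 87 higher and 3 lower, where 15.1% of all 13358 tested genes were higher and 6.73% lower, and the median was 0.02 against 0.18. On both scales the median of these genes lay close to that of all genes. A count of 0 lower as deposited is also 0 at an unadjusted p under 0.05. Without forskolin 1 the count of higher genes as deposited was 29, and without forskolin 2 it was 48.

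Among complex I core subunits, which hold the flavin and iron-sulfur centres that carry electrons, 7 of 7 rose with forskolin as deposited and 1 of 7 after size-factor scaling. That gene was Ndufs7, the subunit of the iron-sulfur cluster next to ubiquinone, at 26.4 and 21.3 CPM with forskolin and 1.92 CPM in the control. Both forskolin libraries were far above the control (log2 change 3.08 ± 0.58, SE; limma adjusted p = 2.63e-06; 1.41 after size-factor scaling, limma adjusted p = 0.0154). The smallest change of the core was that of Ndufv2, a subunit next to the flavin site, at 27.6 and 24.7 CPM with forskolin and 8.30 CPM in the control, a change of 1.54 as deposited that turned to -0.40 after size-factor scaling.

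Of 28 tested accessory subunits, which surround the core and steady it, 21 rose with forskolin as deposited and 3 after size-factor scaling: Ndufa1, Ndufa11 and Ndufs5. Ndufa1, needed for building the membrane arm, had 17.7 and 15.0 CPM with forskolin and 0.749 CPM in the control (log2 change 3.31 ± 0.58, SE; limma adjusted p = 5.97e-07; 1.97 after size-factor scaling, limma adjusted p = 0.0022). Ndufa11, a membrane-arm subunit, had 9.63 and 11.7 CPM with forskolin and 0.891 CPM in the control (log2 change 2.62, and 1.24 after size-factor scaling). In both genes the forskolin libraries lay close together and well above the control.

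Ndufs5 had 10.6 and 7.45 CPM with forskolin and 0.0632 CPM in the control, which is about 3 reads. The ratio of the forskolin mean to the control was 148.5, with a 95% interval from 50.8 to 720 that covers counting error only. This gene has a near-identical copy in the genome, BC002163, at 9.23 and 5.45 CPM with forskolin and 7.00 CPM in the control. With the copy added to Ndufs5, its change was 1.08 as deposited (limma adjusted p = 0.0852) and -0.83 after size-factor scaling, so the call ended.

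At the other end of the accessory subunits was Ndufc1, a small subunit of the membrane arm, at 12.9 and 9.16 CPM with forskolin and 7.23 CPM in the control. It did not pass as deposited (log2 change 0.53, limma adjusted p = 0.397), and passed as lower after size-factor scaling (-1.37, limma adjusted p = 0.0193). Its scaled values were 9.11 and 6.98 with forskolin and 22.2 in the control, so the direction depends on the scaling.

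Assembly factors, which build complex I and are not part of it, rose with forskolin in 5 of 7 cases as deposited and in 2 after size-factor scaling, Ndufaf5 and Ndufaf7. Ndufaf7, a mitochondrial methyltransferase needed for complex I assembly (ENSMUSG00000024082, chromosome 17, 78937135 to 78948052, plus strand), had 7.67 and 5.13 CPM with forskolin and was under the floor of 3 reads (0.0607 CPM) in the control. Set against that floor, the forskolin mean was at least 105-fold higher by deposited CPM, and by scaled values at least 25.0-fold higher, with counting error alone in these bounds. Ndufaf5, which hydroxylates Ndufs7, had 3.90 and 2.25 CPM with forskolin and was under the same floor in the control, at least 50.6-fold and 12.0-fold higher. Ndufaf6 and Cox6b2 were also under that floor in the control. These 4 genes entered the test through the treated libraries alone. With these 4 genes at their bounds the median log2 change of the tested genes was 1.89 as deposited. Ndufaf1, a chaperone of an early complex I intermediate, had 5.89 and 4.16 CPM with forskolin and 3.06 CPM in the control, and passed on neither scale.

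Complex II, the succinate dehydrogenase shared with the citric acid cycle, rose with forskolin in 4 of 4 genes as deposited and in Sdha after size-factor scaling. Sdha, the flavoprotein (ENSMUSG00000021577, chromosome 13, 74322254 to 74350280, minus strand), had 56.3 and 55.9 CPM with forskolin and 5.97 CPM in the control (log2 change 3.03 ± 0.58, SE; limma adjusted p = 3.64e-06; 1.12 after size-factor scaling, limma adjusted p = 0.0378). The forskolin libraries were almost equal. Sdhc, a membrane anchor, had 31.1 and 29.7 CPM with forskolin and 10.8 CPM in the control, a change of 1.42 as deposited that turned to -0.55 after size-factor scaling.

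Complex III, which passes electrons from ubiquinol to cytochrome c, rose with forskolin in 8 of 9 genes as deposited and in 0 after size-factor scaling. Uqcrc2, a core protein, was highest in change at 51.2 and 43.0 CPM with forskolin and 6.56 CPM in the control. Uqcrh, the hinge protein, was lowest at 66.7 and 44.2 CPM with forskolin and 24.0 CPM in the control (a log2 change of 1.15 with a limma adjusted p = 0.0701; -0.87 after size-factor scaling). Cycs, the mobile carrier between complexes III and IV, had 1.90 and 1.17 CPM with forskolin and 0.283 CPM in the control and did not pass, but most reads of its sequence were listed under other genes, as described further on.

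Complex IV, the oxygen-reducing enzyme, rose with forskolin in 12 of 16 tested genes as deposited, and after size-factor scaling in 0 of 14, with 1 lower. Cox5b, a matrix-facing subunit, had 24.7 and 14.8 CPM with forskolin and 2.78 CPM in the control (log2 change 2.41 ± 0.58, SE; limma adjusted p = 0.00018; 0.66 after size-factor scaling). The gene called lower was Cox7a2l, a supercomplex assembly factor, at 61.2 and 47.1 CPM with forskolin and 34.1 CPM in the control. It did not pass as deposited (0.64, limma adjusted p = 0.308) and stood at -1.39 after size-factor scaling (limma adjusted p = 0.016).

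ATP synthase genes rose with forskolin in 13 of 17 cases as deposited, and after size-factor scaling 1 was higher and 1 lower. The higher one was Atp5d, the delta subunit of the central stalk, at 71.2 and 93.6 CPM with forskolin and 8.5 CPM in the control (log2 change 3.12 ± 0.58, SE; limma adjusted p = 2.55e-06; 1.17 after size-factor scaling, limma adjusted p = 0.0462). The lower one was Atp5g2, which encodes the c subunit of the membrane ring as do Atp5g1 and Atp5g3, at 2.36 and 1.38 CPM with forskolin and 1.92 CPM in the control. With its near-identical copies added, Atp5g2 was not called lower (-0.21 after size-factor scaling).

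cAMP against control asked the same of the second messenger. As deposited, limma called 81 of 89 tested genes higher with cAMP and 0 lower, where 65.1% of all tested genes were higher and 0.436% lower. Their median log2 change was 2.48, against 1.66 for all tested genes, or 2.53 with the 4 genes under the control's floor at their bounds. After size-factor scaling, limma called 22 of 87 higher and 0 lower, where 15.7% of all tested genes were higher and 7.03% lower, with a median of 0.77 against 0.15. On both scales the median of these genes lay above that of all genes. At an unadjusted p under 0.05 the counts of lower genes were 0 as deposited and 2 after size-factor scaling. On that scale 13 genes were called higher without cAMP 2 and 8 without cAMP 1, the library with the larger sum.

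**Figure D2:**
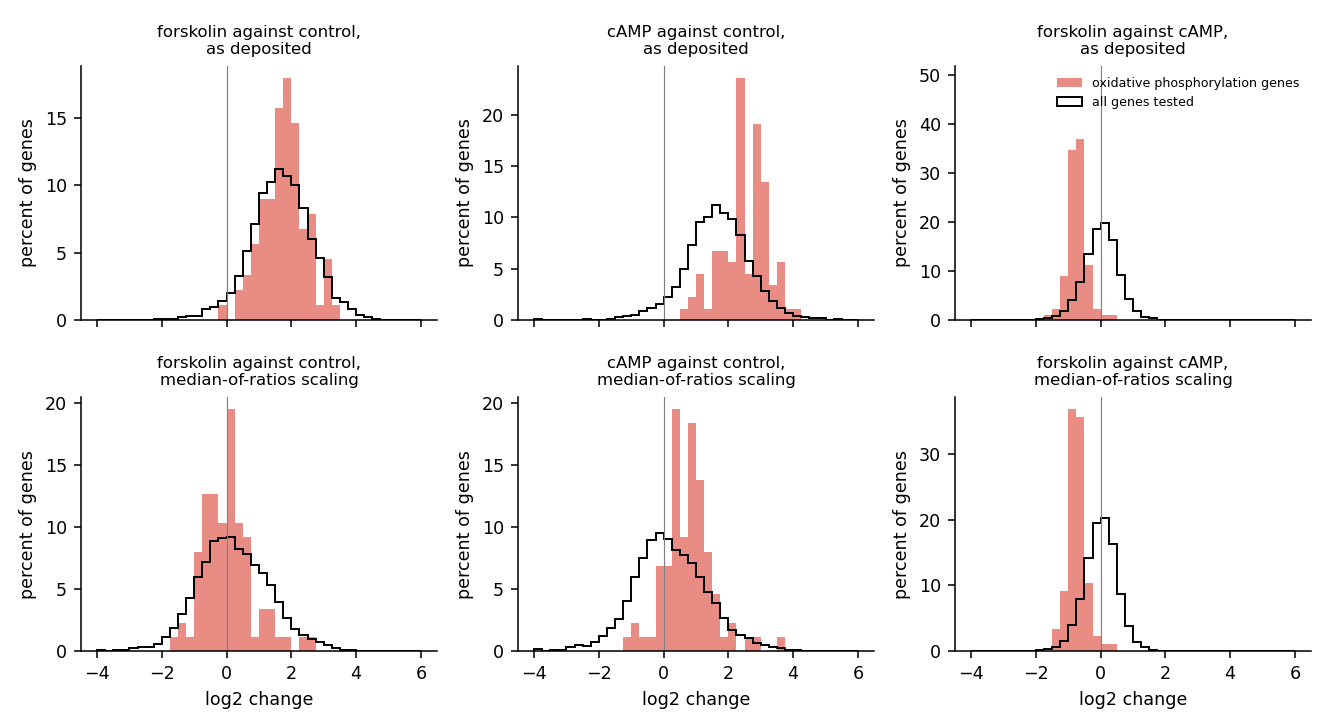
Histograms of log2 change (horizontal axis, bins of equal width, ends of the range pooled) for the tested oxidative phosphorylation genes (red) and all tested genes (black line), as percent of each set. Columns are the 3 comparisons and rows the deposited values and those after size-factor scaling. The red medians lie at 1.81, 2.48 and -0.75 in the upper row and at 0.02, 0.77 and -0.75 in the lower row, against 1.69, 1.66 and 0.03 and 0.18, 0.15 and 0.02 for all genes.

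All 7 complex I core genes and all 28 tested accessory genes rose with cAMP as deposited, and after size-factor scaling 2 core genes (Ndufs7 and Ndufv1) and 5 accessory genes did. Ndufs7 had 49.4 and 26.1 CPM with cAMP and 1.92 CPM in the control (log2 change 3.66 ± 0.58, SE; limma adjusted p = 2.72e-08; 2.0 after size-factor scaling, limma adjusted p = 0.00123). Ndufa1 had 34.2 and 17.5 CPM with cAMP and 0.749 CPM in the control, a change of 3.87 as deposited and 2.53 after size-factor scaling. Ndufa11 had 33 and 13.0 CPM with cAMP and 0.891 CPM in the control, a change of 3.53 and 2.13 on the same scales. In each gene cAMP 1 lay above cAMP 2, and both lay well above the control.

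Ndufs5 had 27.7 and 10.4 CPM with cAMP and 0.0632 CPM in the control, a ratio of 314 with a 95% counting interval from 107.5 to 1523. With its copy added the change was 1.96 as deposited (limma adjusted p = 0.00207) and 0.04 after size-factor scaling. Of the assembly factors, 5 of 7 rose as deposited and 2 after size-factor scaling. Ndufaf7 had 11.6 and 6.22 CPM with cAMP and was under the floor in the control, which puts cAMP at least 147-fold higher by deposited CPM and by scaled values at least 34.0-fold higher. Ndufaf1 had 10.2 and 6.03 CPM with cAMP and 3.06 CPM in the control and did not pass on either scale.

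Complex II rose with cAMP in 4 of 4 genes as deposited and in 3 after size-factor scaling (Sdha, Sdhb and Sdhd). Sdha had 102 and 72.4 CPM with cAMP and 5.97 CPM in the control (log2 change 3.64 ± 0.58, SE; limma adjusted p = 3.36e-08; 1.74 after size-factor scaling, limma adjusted p = 0.00254). Complex III rose in 9 of 9 as deposited and in 3 after size-factor scaling (Cyc1, Uqcrc2 and Uqcrq). Uqcrc2 had 91.2 and 61.7 CPM with cAMP and 6.56 CPM in the control, a change of 3.33, and of 1.42 after size-factor scaling (limma adjusted p = 0.0104). These complexes thus held genes that passed on both scales.

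Complex IV rose with cAMP in 12 of 16 tested genes as deposited and in 3 of 14 after size-factor scaling (Cox5b, Cox6b2 and Cox7b). With near-identical copies added, Cox5b did not pass on that scale (0.70, limma adjusted p = 0.218). Cox7b, a small subunit of the enzyme, had 151 and 79.6 CPM with cAMP and 11.3 CPM in the control (log2 change 3.17 ± 0.58, SE; limma adjusted p = 1.53e-06; 1.2 after size-factor scaling, limma adjusted p = 0.0315). ATP synthase genes rose in 16 of 17 cases as deposited and in 4 after size-factor scaling (Atp5b, Atp5d, Atp5g3 and Atp5o), and Atp5o did not pass on that scale with its copies added (0.74, limma adjusted p = 0.159). Atp5g3 had 228 and 141 CPM with cAMP and 14.1 CPM in the control, a change of 3.58, and of 1.59 after size-factor scaling (limma adjusted p = 0.00533). Atp5b had 698 and 422 CPM with cAMP and 53.4 CPM in the control, a change of 3.32, and of 1.29 after size-factor scaling (limma adjusted p = 0.0322).

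Forskolin against cAMP set the enzyme's activator against its product, at doses that differ in kind, so the comparison is between the 2 treatments as given and does not use the control's level. As deposited, limma called 0 of 89 genes, where 0.378% of all tested genes were called, 0.189% as higher and 0.189% as lower. At an unadjusted p under 0.05, 15 of the 89 were lower with forskolin and 0 higher, where 3.55% of all tested genes were lower and 3.26% higher. After size-factor scaling, limma called 1 of 87 lower and 0 higher, where 0.374% of all tested genes were lower and 0.172% higher (0.546% called in all), and 49 were lower at an unadjusted p under 0.05, as were 6.3% of all tested genes. The median log2 change was -0.75 on both scales, against 0.03 and 0.02 for all tested genes.

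The direction was shared by most of the genes: 87 of 89 had a lower fitted mean with forskolin than with cAMP. Both forskolin libraries lay below both cAMP libraries in 63 of 91 genes by CPM, as they did in 17.0% of all tested genes, and in 79 of 91 after size-factor scaling, as in 20.6% of all tested genes. By role and CPM these were 6 of 7 complex I core, 21 of 29 accessory, 5 of 7 assembly, 2 of 4 complex II, 7 of 9 complex III, 8 of 17 complex IV and 14 of 17 ATP synthase genes. After scaling they were 7 of 7, 26 of 29, 5 of 7, 4 of 4, 9 of 9, 14 of 17 and 14 of 17 in the same order. The size of the difference depended on the cAMP library used. The median was -0.31 without cAMP 1 and -1.16 without cAMP 2 as deposited, and -0.58 and -0.89 after size-factor scaling.

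**Figure D3:**
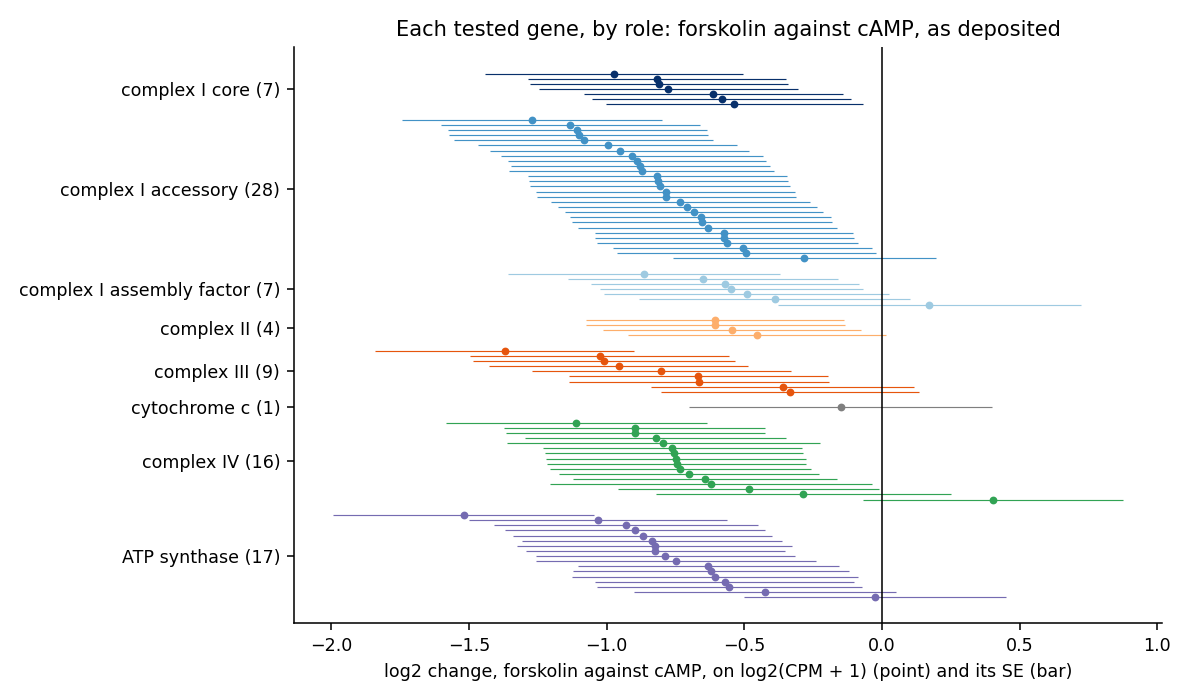
Log2 change of forskolin against cAMP for the 89 tested genes (horizontal axis, log2(CPM + 1) scale; points are fitted values, bars their SE), grouped by role from complex I core at the top to ATP synthase at the bottom. Points lie left of 0 for 87 genes and right of it for Ndufa4l2 and Ndufaf6, and none was called by limma on this scale.

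The gene with the smallest p was Atp5g1, a c subunit gene of ATP synthase (ENSMUSG00000006057, chromosome 11, 96068852 to 96075670, minus strand). It had 9.35 and 6.82 CPM with forskolin and 34.5 and 17.8 CPM with cAMP, and the groups did not overlap. Its log2 change was -1.52 (95% interval from -2.45 to -0.59; limma adjusted p = 0.176) as deposited, and -1.49 after size-factor scaling, where it passed (limma adjusted p = 0.0473). A copy of this gene, Gm10039, held more reads than the gene itself in every library, and with the copy added Atp5g1 did not pass after size-factor scaling (-1.19, limma adjusted p = 0.101).

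Uqcrb, a ubiquinone-binding subunit of complex III, had 18.7 and 9.60 CPM with forskolin and 45.4 and 29.1 CPM with cAMP (log2 change -1.37, 95% interval from -2.30 to -0.44; limma adjusted p = 0.291). Ndufs6, an accessory subunit with a zinc site, had 12.2 and 11.1 CPM with forskolin and 47.1 and 18.5 CPM with cAMP (-1.27, from -2.20 to -0.34). Ndufc1 had 12.9 and 9.16 CPM with forskolin and 28.6 and 21.8 CPM with cAMP (-1.13, from -2.06 to -0.21). In none of the 3 did the groups overlap, and none passed the adjusted test. With its listed near-identical copies added, the change of Uqcrb was -1.12.

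The next smallest p-values belonged to Cox7b, Ndufs4, Ndufa2, Ndufa9, Atp5k and Uqcrq, with log2 changes from -1.11 to -1.02. Ndufs4, an accessory subunit needed for a stable complex I, had 19.1 and 11.9 CPM with forskolin and 38.1 and 29.96 CPM with cAMP. Cox7b had 60.3 and 41.9 CPM with forskolin and 151 and 79.6 CPM with cAMP. The interval of each gene, taken alone, lay below 0, but none passed the test adjusted over all genes.

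The exceptions to the shared direction were a pair of genes whose deposited values overlapped between agents. Ndufa4l2, a hypoxia-induced relative of the complex IV subunit Ndufa4, had 26.5 and 17.2 CPM with forskolin, 23.3 and 10.7 CPM with cAMP, and 8.01 CPM in the control. Forskolin and cAMP libraries overlapped (log2 change 0.40, 95% interval from -0.52 to 1.33; limma adjusted p = 0.994), and without cAMP 2 the change was -0.12. Ndufaf6, an assembly factor, had 2.23 and 1.73 CPM with forskolin, 1.95 and 1.35 CPM with cAMP, and was under the floor in the control. After size-factor scaling its libraries did not overlap, at 1.57 and 1.32 with forskolin and 1.19 and 1.21 with cAMP (log2 change 0.15, limma adjusted p = 0.939). Across complex I core genes the difference ran from -0.97 (Ndufs8, an iron-sulfur subunit) to -0.54 (Ndufs1, the largest subunit). The smallest differences of their roles, other than those exceptions, were those of Uqcrfs1, the Rieske iron-sulfur protein (-0.33), Ndufa12 (-0.28), Cycs (-0.15) and Atp5sl (-0.03), each with overlapping libraries. With its near-identical copy added, Ndufa12 stood at -0.59. Complex II differed least among the multi-gene complexes, with changes from -0.61 to -0.45, and Sdhc at -0.45 (95% interval from -1.38 to 0.47).

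Libraries of a group did not lie equally close. Over the tested genes the median ratio of forskolin 1 to forskolin 2 was 1.18, where that of all tested genes was 1.06, and ran from 0.6 (Cox8a) to 2.01 (Atp5l). The median ratio of cAMP 1 to cAMP 2 was 1.83, where that of all tested genes was 1.48, and ran from 0.496 (Cox6a2) to 2.78 (Ndufb7). cAMP 1 was the highest of the 5 libraries in 85 of 91 genes, as in 45.7% of all tested genes, and the control the lowest in 89 of 91, as in 88.7%. By CPM the spread within the cAMP group was therefore wider than within the forskolin group and mostly in a single direction. After size-factor scaling the median ratios were 1.09 with forskolin and 1.25 with cAMP, where those of all tested genes were 0.983 and 1.01.

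Several subunits of complex IV and ATP synthase come as paralogs that are used in different tissues. Cox6a1, the widely used form, had 45.1 and 55.4 CPM with forskolin, 128 and 62.0 CPM with cAMP, and 10.2 CPM in the control. Cox6a2, its heart and muscle form, had 0.454 and 0.653 CPM with forskolin, 1.16 and 2.34 CPM with cAMP, and 0.251 CPM in the control. Cox7a1 and Cox8b, the muscle forms of 2 other subunits, stayed at or under 1.26 CPM in every library, and Cox7a1 did not reach the minimum for testing. The non-muscle forms were thus the main ones listed in all 5 libraries.

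Cox6b2, known as the testis form, had 3.02 and 1.59 CPM with forskolin, 3.93 and 2.14 CPM with cAMP, and was under the floor in the control, whereas Cox6b1 had 56.3 and 49.8 CPM with forskolin, 154 and 64.3 CPM with cAMP, and 18.9 CPM in the control. Ndufa4 had 47.9 and 32.0 CPM with forskolin, 88.8 and 61.4 CPM with cAMP, and 9.5 CPM in the control. Per length, Ndufa4 stood above Ndufa4l2 in all 5 libraries, at 190 and 131 CPM per kb against 25.0 and 11.5 CPM per kb with cAMP, and at 20.3 against 8.58 CPM per kb in the control. For Ndufa4l2, forskolin passed against the control as deposited (log2 change 1.31, limma adjusted p = 0.0376), cAMP did not (0.91, limma adjusted p = 0.149), and after size-factor scaling they stood at -0.62 and -1.01 and neither passed.

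**Figure D4:**
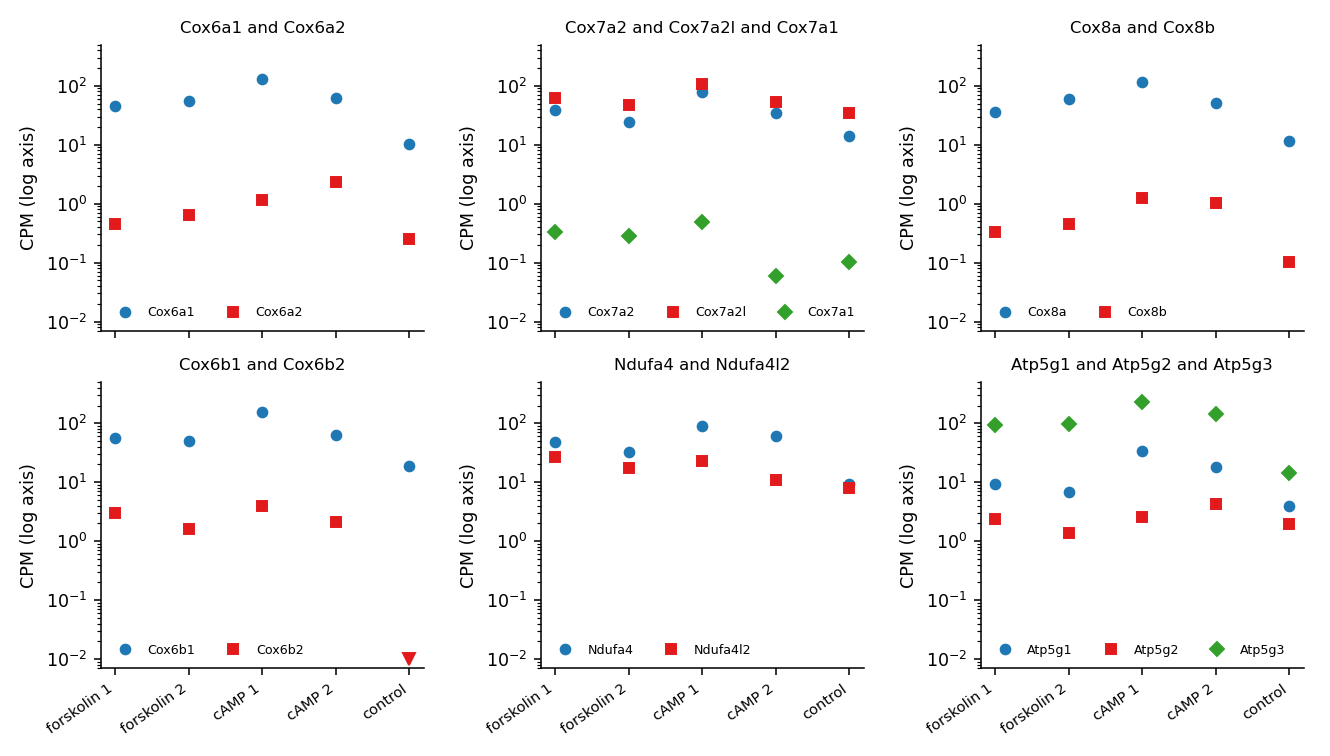
CPM of paralogous subunits in each library (log axis), with 1 panel for each set of paralogs; a triangle at the foot marks Cox6b2 in the control, listed under 1 read. Cox6a2, Cox7a1 and Cox8b lie at or under 2.34 CPM in every library, while Cox6a1, Cox7a2 and Cox8a reach 128, 79.2 and 116 CPM in cAMP 1.

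Many of these genes have processed copies elsewhere in the genome, and reads can be shared with them. A search of each coding sequence against GENCODE M21 transcripts, at 95% identity or more over at least 80% of its length, found 43 copies of 22 genes, and copies of 21 genes were listed. In 6 genes (Atp5g1, Atp5g2, Atp5h, Atp5l, Cycs and Ndufb4) the copies held more reads than the gene in every library. Values of these genes alone are uncertain.

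The clearest case was Cycs (ENSMUSG00000063694, chromosome 6, 50562563 to 50566538, minus strand). Its 3 listed copies (Gm10053, Gm10108 and Gm13772) summed to 39.3 and 26.8 CPM with forskolin, 86.2 and 57.5 CPM with cAMP, and 6.24 CPM in the control. With the copies added, cytochrome c sequence rose against the control with forskolin (log2 change 2.22, limma adjusted p = 0.000526) and with cAMP (3.28, limma adjusted p = 4.97e-07), and after size-factor scaling only with cAMP (1.37, limma adjusted p = 0.0145). Forskolin against cAMP was -1.07 with the copies added and -0.15 without them. The gene alone and the summed sequence thus gave different values in every comparison.

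Ndufb4, a membrane-arm subunit that was too low to be tested alone, had 15.1 and 15.2 CPM with forskolin, 34.7 and 15.5 CPM with cAMP, and 2.98 CPM in the control with its copy Gm3244 added. Atp5l, subunit g of ATP synthase, had 89.0 and 46.5 CPM with forskolin, 149 and 89.1 CPM with cAMP, and 23.5 CPM in the control with its copies added, and 9.69 and 4.82, 11.7 and 9.56, and 2.81 CPM alone. Over all genes of the set, with copies added, limma called 72 higher with forskolin and 84 higher with cAMP as deposited, and 7 and 23 after size-factor scaling, where it called 2 lower with forskolin. Against the control with forskolin as deposited, calls of Atp5f1 and Ndufs5 were lost and those of Atp5g2, Atp5l, Cycs and Ndufb4 were gained. With cAMP after size-factor scaling, calls of Atp5o, Cox5b and Ndufs5 were lost and those of Cycs, Ndufs3 and Uqcr11 were gained.

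**Figure D5:**
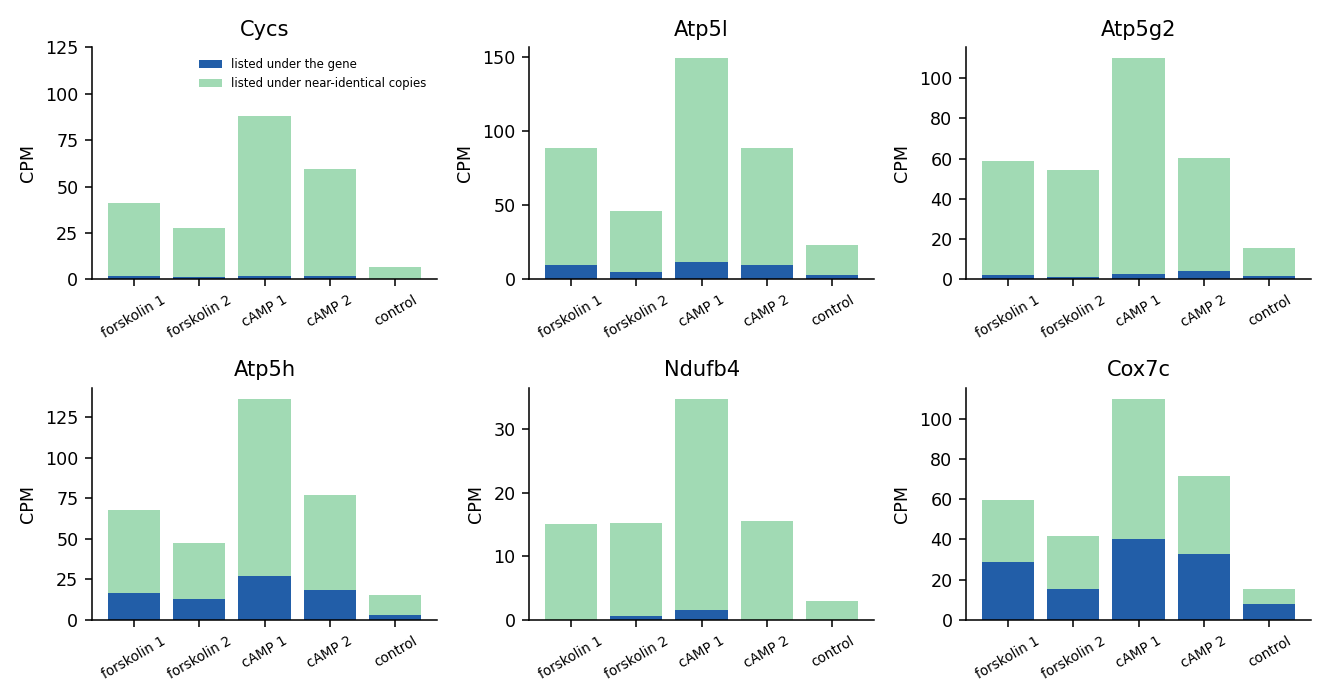
CPM listed under each gene (dark) and under its near-identical copies (light) in the 5 libraries, for Cycs, Atp5l, Atp5g2, Atp5h, Ndufb4 and Cox7c. The light part is the larger in every library for the first 5 genes, for example 39.3 CPM of copies beside 1.90 CPM of Cycs in forskolin 1.

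Promoters are shown because CREB, the factor named by the study, binds known letters. RefSeq promoter tables on GRCm38.p6, which give 250 bases before and 50 after each annotated start, matched 73 of the 91 genes with 78 promoters. The full cAMP response element TGACGTCA, on either strand, was in 6.41% of these promoters, against 2.93% of promoters of tested genes and 1.79% of all promoters. Its shorter core TGACG, which lies within it, was in 35.9%, against 30.3% and 20.8%, but counted per gene it was in 35.6% of the matched genes and 35.1% of tested genes. The NRF1 letters GCGCANGCG were in 30.8%, against 12.7% and 6.25%. The ETS letters CCGGAAG, read by GABP, were in 21.8%, against 16.9% and 8.86%, and the YY1 letters AAGATGGC in 11.5%, against 4.30% and 2.75%. These are matches of letters and not binding sites, and shares were compared without a test.

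The 250 bases before the start held a full cAMP response element in 5 genes (Cycs, Ndufa10, Ndufa11, Ndufb2 and Uqcrfs1) and NRF1 letters in 16, with both in Cycs and Ndufa11. Promoters on a single chromosome had been left out here, so these counts may not cover all the matched genes. The 3 genes with the largest deposited cAMP changes of their own values among those with a match are given here (with its copy added, Ndufs5 would not be among them), 5′ to 3′ on the gene's strand, with matches of either motif in capitals. Ndufa11 holds TGACGTCA starting 158 bases before the start and overlapping NRF1 letters from 60 bases before it. Ndufs5 holds NRF1 letters from 98 bases before the start, and Sdha from 98, 55 and 10 bases before it.
Ndufs5, chr4:123718187-123718436, minus strand: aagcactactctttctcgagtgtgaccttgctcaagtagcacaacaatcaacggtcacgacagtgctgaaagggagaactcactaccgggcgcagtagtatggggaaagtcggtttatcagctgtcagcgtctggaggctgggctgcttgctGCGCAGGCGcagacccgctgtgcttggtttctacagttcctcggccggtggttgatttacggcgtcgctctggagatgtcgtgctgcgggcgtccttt
Sdha, chr13:74350241-74350490, minus strand: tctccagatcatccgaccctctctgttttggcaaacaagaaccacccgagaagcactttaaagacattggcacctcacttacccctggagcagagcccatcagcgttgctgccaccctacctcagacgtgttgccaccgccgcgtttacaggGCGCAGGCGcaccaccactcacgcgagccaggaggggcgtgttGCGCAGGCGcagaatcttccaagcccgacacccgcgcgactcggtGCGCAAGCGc
Ndufa11, chr17:56717512-56717761, plus strand: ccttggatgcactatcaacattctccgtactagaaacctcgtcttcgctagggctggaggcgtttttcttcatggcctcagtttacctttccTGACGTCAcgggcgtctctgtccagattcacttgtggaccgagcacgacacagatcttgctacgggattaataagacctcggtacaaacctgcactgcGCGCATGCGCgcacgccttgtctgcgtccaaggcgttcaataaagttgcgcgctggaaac

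The 13 respiratory chain subunits encoded by mitochondrial DNA did not follow the nuclear ones. They summed to 463587 and 357948 CPM with forskolin, 403172 and 534788 CPM with cAMP, and 624385 CPM in the control. The sum was 150 and 124 times that of the 91 nuclear genes with forskolin, 60.0 and 144 times with cAMP, and 884 times in the control. Set against all nuclear CPM, the same sum was 160% and 128% with forskolin, 112% and 222% with cAMP, and 867% in the control. The high value of the control is thus also seen against nuclear transcripts as a whole and is not particular to the 91 genes. As deposited, limma called 1 of 13 lower than the control with forskolin (mt-Nd3) and 0 with cAMP, and after size-factor scaling 6 and 5 lower. Of all tested genes, 0.341% and 0.436% were lower as deposited, and 6.73% and 7.03% after size-factor scaling. Values of mitochondrial transcripts can include reads of their nuclear copies.

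Other genes of mitochondria were described by lists chosen with earlier results of these data known. Of all tested genes, 66.3% rose with forskolin and 65.1% with cAMP as deposited, and 15.1% and 15.7% after size-factor scaling. Of 15 citric acid cycle genes, which feed electrons to complexes I and II, 15 rose with each agent as deposited. After size-factor scaling 1 of the 15 rose with forskolin and 3 with cAMP. Their median log2 change of forskolin against cAMP was -0.54, and 0 were called. Mdh2, the matrix malate dehydrogenase, had 79.7 and 84.3 CPM with forskolin, 175 and 94.6 CPM with cAMP, and 13.6 CPM in the control. Idh3g, a subunit of isocitrate dehydrogenase, had 27.4 and 35.4 CPM with forskolin, 70.6 and 44.1 CPM with cAMP, and 3.83 CPM in the control.

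Among 36 assembly factors outside the 91, 23 rose with forskolin and 27 with cAMP as deposited, and after size-factor scaling 7 and 12 rose and 1 fell with each. As deposited 66.3% and 65.1% of all tested genes rose, and after size-factor scaling 15.1% and 15.7% rose and 6.73% and 7.03% fell. Acad9, a complex I assembly factor that is also an acyl-CoA dehydrogenase, had 96.6 and 122 CPM with forskolin, 247 and 192 CPM with cAMP, and 10.9 CPM in the control, and passed against the control with both agents on both scales. Of 76 tested mitochondrial ribosome genes 50 rose with forskolin and 66 with cAMP as deposited, where 66.3% and 65.1% of all tested genes did, and after size-factor scaling 8 rose and 7 fell with forskolin and 16 rose and 0 fell with cAMP. Their forskolin against cAMP median was -0.51, and 0 were called.

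Changes of 15 regulators of mitochondrial genes between forskolin and cAMP ran from -0.81 to 0.84, with a median of 0.29 and 0 called. Creb1 had 27.9 and 19.0 CPM with forskolin, 16.8 and 14.3 CPM with cAMP, and 1.58 CPM in the control. Pprc1, a coactivator of the PGC-1 family, had 32.4 and 28.1 CPM with forskolin, 21.4 and 12.5 CPM with cAMP, and 3.42 CPM in the control. In both genes the forskolin libraries lay above the cAMP libraries and the control below all 4, and neither difference between agents passed. Ppargc1a itself was at most 1.69 CPM in every library.

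Sebocyte markers also differed between agents. The 12 markers, which name lipid-making cells of the sebaceous gland, summed to 2021 and 3132 CPM with forskolin, 6453 and 6844 CPM with cAMP, and 220 CPM in the control, or 0.697% and 1.12%, 1.79% and 2.84%, and 0.305% of nuclear CPM. All 12 were lower with forskolin than with cAMP in fitted mean, with a median of -1.49, and limma called 1 lower as deposited (Elovl3) and 5 after size-factor scaling. Among the 12, Pparg was under the floor in the control and none was so in a treated library. By CPM and by share of nuclear CPM, the sebocyte sum was lower in forskolin 1 than forskolin 2 and in cAMP 1 than cAMP 2. By both measures the sum of the oxidative phosphorylation genes had the reverse order. It stood at 3087 and 2884 CPM with forskolin and 6718 and 3725 CPM with cAMP. The part of sebocytes in the difference of the oxidative phosphorylation genes was not tested.

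Markers of tissues rich in mitochondria were also summed. The 8 skeletal muscle markers summed to 124 and 122 CPM with forskolin, 104 and 172 CPM with cAMP, and 72.2 CPM in the control. The 4 adipocyte markers summed to 3.80 and 3.81 CPM with forskolin, 8.21 and 7.87 CPM with cAMP, and 1.56 CPM in the control. Both cAMP libraries thus lay above both forskolin libraries in the adipocyte sum, as in that of the oxidative phosphorylation genes. Of nuclear CPM, the muscle markers held 0.0428% and 0.0437% with forskolin, 0.0290% and 0.0712% with cAMP, and 0.1% in the control. The control thus held the largest share. As deposited, limma called 0 of the 8 muscle markers lower than the control, and 0 higher with forskolin and 1 with cAMP. After size-factor scaling it called 3 lower with forskolin and 2 with cAMP, and 0 higher. On that scale 6.73% and 7.03% of all tested genes were lower. The 6 fibroblast markers summed to 9.15 and 198 CPM with forskolin, 107 and 260 CPM with cAMP, and 144 CPM in the control. The sums overlapped, and forskolin 1 was far below the other 4 libraries. All 5 tested fibroblast markers had a lower fitted mean with forskolin than with cAMP (median -1.60), and limma called 2 of them lower as deposited and 0 after size-factor scaling. Against the control, limma called 3 of 5 lower with forskolin and 0 with cAMP as deposited, and 4 and 1 after size-factor scaling. The part of muscle cells, adipocytes and fibroblasts in the difference of the oxidative phosphorylation genes was not tested.

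The makeup of the genes by transcript type was alike in all libraries. Protein-coding transcripts held between 76.1% and 77.8% of their CPM and retained introns between 7.25% and 9.51%. With protein-coding transcripts alone, 57 were called higher with forskolin and 77 with cAMP as deposited, and the forskolin against cAMP median was -0.75.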

How the data were processed

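Polyadenylated RNA of 5 epidermal samples was sequenced from stranded libraries, per the labels' protocols. The submitters' processing notes name bcl2fastq 2.17, STAR and Partek, with order, settings and genome build not given in the sources used here. For each library, 59869 transcripts have deposited values in a normalized unit, read here from the values as CPM scaled by the authors, with a small offset in place of 0. The table's columns carry a prefix shared by all samples and a number, and were matched to samples by that number in the sample descriptions; the column names state no group, so each group rests on that match. Between 59.6% and 75.7% of low gene sums came within 0.1 of whole reads at the estimated depth, where chance gives 20%, so the values were not treated as counts and a log-scale test was used in place of a count test. The smallest listed values gave the depths and the floor of 3 reads, which cover counting error only.

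CPM were summed over transcripts of each gene. Genes with at least 1 CPM in 2 or more libraries entered limma 3.58.1 (R 4.3.3, trended variance) on log2(CPM + 1), with all 5 libraries in 3 groups and Benjamini-Hochberg adjustment over all genes. A gene at that level in the control alone could not enter, whereas one at that level with an agent alone could. This filter favours calls of higher over lower against the control, among all tested genes as well. The control has 1 library, so its spread is taken to be that of the treated groups. In the deposited fit a gene's own spread had 2 degrees of freedom, and the trend shared over genes had 360. After size-factor scaling these were 2 and 18.1. Fold changes on this scale understate changes of low genes. The fit was also run on simulated data without the control's low nuclear share, so that run cannot speak to the choice of scaling. Size factors were medians of ratios over 11935 genes above 0.05 CPM in every library.

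In each role the genes with the largest and smallest change were named, with the paralogs, every gene called lower, the 5 highest levels per length, and up to 10 with the smallest p between agents. Other genes called after size-factor scaling, Atp5l, Ndufb4, Krt14 and Krt10 were named after their values were seen. The genes and the lists were chosen with earlier results of these data known. Transcript coordinates follow the deposited table, where 293 of 330 transcripts had the same start and end in GENCODE M21 (GRCm38). Alternatives were other scalings, pseudocounts, filters, transcript sets and left-out libraries.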

Additional observations from a re-analysis of the deposited data

How the results depend on the processing

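Against the control, scaling decided most calls. For forskolin, 70 genes were higher and 0 lower by deposited CPM, the median log2 change was 1.81 and 9177 of all genes were called. Size-factor (median-of-ratios) scaling gave 8 higher, 3 lower, a median of 0.016 and 2922 calls, quantile normalization 5, 3, -0.045 and 1902, and scaling to nuclear reads 10, 2, 0.090 and 3638. The median was 2.04 with a pseudocount of 0.1, 1.33 with one of 5 and 1.92 with a filter of 10 CPM, and 44 genes were higher with no filter. Leaving out each library in turn gave 29 to 78 higher, medians from 1.65 to 1.94, and 5342 to 10310 calls over all genes. For cAMP, 81 were higher as deposited, with a median of 2.48 and 9025 calls. Size-factor scaling gave 22, 0.77 and 3040, quantile normalization 16, 0.60 and 2045, and scaling to nuclear reads 24, 0.81 and 3786. These scalings differ from the deposited values by construction in removing the control's low nuclear share.

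Some alternatives were chosen after seeing the data. With near-identical copies added and size-factor scaling, forskolin gave 7 higher, 2 lower, a median of -0.017 and 2920 calls, and cAMP gave 23 higher, a median of 0.73 and 3040 calls. Size-factor scaling with each library left out in turn gave 5 to 6 higher and 0 to 3 lower for forskolin, with medians from -0.038 (without forskolin 1) to 0.080 (without forskolin 2). Calls over all genes were 2488 without forskolin 1, 1847 without forskolin 2, 2558 without cAMP 1 and 2569 without cAMP 2. For cAMP, 25 were higher without forskolin 1 (3191 calls over all genes), 25 without forskolin 2 (3129), 8 without cAMP 1 (1782) and 13 without cAMP 2 (1923), with medians from 0.59 to 0.85. The lowest cAMP count was without cAMP 1, the lowest forskolin count without forskolin 2 or cAMP 1, and the 0 lower without forskolin 2.

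Between forskolin and cAMP the median was -0.75 as deposited and negative under all alternatives run. It ran from -1.16 (without cAMP 2) to -0.31 (without cAMP 1), and after size-factor scaling from -0.89 to -0.58. Genes called lower numbered 0 as deposited, 1 after size-factor scaling, and 0 to 2 there with a library left out, 2 being without forskolin 1. Calls over all genes numbered 52 as deposited, 8 with scaling to nuclear reads, 16 with a pseudocount of 0.1, 0 with no filter, 33 with a filter of 10 CPM and 8 with protein-coding transcripts only. They ran from 10 to 71 with a library left out and, with size-factor scaling as well, were 91 without forskolin 1, 193 without forskolin 2 and 0 without either cAMP library. The cause of these differences was not tested. The replicate block gave 55 calls over all genes and 0 of the oxidative phosphorylation genes. Deviations of forskolin 1 and cAMP 1 from their group means correlated at -0.05 over genes. As a single pair of deviations, this cannot tell whether libraries of the same number shared a mouse or handling.

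Directions against the control turned round for many genes, calls among them: 1 of 89 was lower in fitted mean with forskolin as deposited and 42 of 87 after size-factor scaling, and 0 of 89 and 11 of 87 with cAMP. For forskolin against control, size-factor scaling, quantile normalization and scaling to nuclear reads gave -0.91, -0.99 and -0.92 for Atp5g1, -1.39, -1.25 and -1.32 for Cox7a2l, -1.16, -1.26 and -1.24 for Ndufaf1, -1.37, -1.42 and -1.37 for Ndufc1, -0.55, -0.59 and -0.48 for Sdhc, and -0.87, -0.82 and -0.80 for Uqcrh. In the same order Ndufa4l2 had -0.62, -0.66 and -0.57, and Ndufv2 -0.40, -0.43 and -0.33. Quantile normalization and scaling to nuclear reads gave -1.08 and -0.62 for Cox6a2, quantile normalization -0.51 for Cycs, and Atp5g2 ran from -0.30 (without forskolin 1) to 0.20 (without forskolin 2). For cAMP against control the same 3 scalings gave -0.98, -1.14 and -1.18 for Atp5g2, -0.90, -0.83 and -0.88 for Cox7a2l, -1.01, -1.02 and -1.04 for Ndufa4l2, -0.61, -0.70 and -0.66 for Ndufaf1, -0.25, -0.29 and -0.24 for Ndufc1, and -0.086, -0.14 and -0.066 for Sdhc, with quantile normalization at -0.28 for Cycs. For forskolin against cAMP, Atp5sl had 0.021 with scaling to nuclear reads, 0.023 with protein-coding transcripts only, and from -0.38 (without cAMP 2) to 0.33 (without cAMP 1) with a library left out. Cycs ran from -0.36 (without forskolin 1) to 0.058 (without forskolin 2). Ndufa12 had 0.25 without cAMP 1, and Ndufa4l2 ran from -0.12 (without cAMP 2) to 0.93 (without cAMP 1). Depth limits the genes under 3 reads in the control, whose fitted changes depend on the pseudocount.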

Other observations

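The 4 basal keratinocyte markers summed to 4909 and 3797 CPM with forskolin, 4671 and 2065 CPM with cAMP, and 989 CPM in the control, and the 4 suprabasal markers to 2175 and 2042 CPM, 2149 and 887 CPM, and 987 CPM. In neither list did both cAMP libraries lie above both forskolin libraries. As a share of nuclear CPM the basal sums were 1.69% and 1.36% with forskolin, 1.30% and 0.856% with cAMP, and 1.37% in the control. The suprabasal sums were 0.750% and 0.729%, 0.598% and 0.367%, and 1.37%, with the control highest. After size-factor scaling, limma called 2 of 4 markers lower than the control in each list with cAMP. With forskolin it called 0 basal and 1 suprabasal marker lower. Of all tested genes, 7.03% and 6.73% were lower. The 5 T cell markers summed to 548 and 355 CPM with forskolin, 414 and 268 CPM with cAMP, and 84.0 CPM in the control. The 4 Langerhans cell markers summed to 577 and 366 CPM with forskolin, 549 and 208 CPM with cAMP, and 76.9 CPM in the control. The 5 melanocyte markers summed to 77.3 and 206 CPM with forskolin, 223 and 224 CPM with cAMP, and 21.3 CPM in the control. In this list both forskolin libraries lay below both cAMP libraries by CPM, as in the sum of the oxidative phosphorylation genes. As a share of nuclear CPM the melanocyte sums overlapped, at 0.0266% and 0.0735% with forskolin and 0.0620% and 0.0928% with cAMP. All 5 melanocyte markers had a lower fitted mean with forskolin (median -0.87, 0 called).

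For genes of the cytosolic ribosome, limma called 31 of 79 higher with forskolin and 51 higher with cAMP as deposited, where 66.3% and 65.1% of all tested genes were higher. After size-factor scaling, 15.1% and 15.7% of all tested genes were higher with forskolin and cAMP, and 6.73% and 7.03% lower. Of 80 cytosolic ribosome genes, 7 were higher and 21 lower there with forskolin (median -0.86), and 7 higher and 7 lower with cAMP (median -0.42). Their median change of forskolin against cAMP was -0.36, with 0 called. Of 10 tested carriers of the mitochondrial membranes, 10 rose with each agent as deposited, and 1 with forskolin and 2 with cAMP after size-factor scaling. The shares over all tested genes were 66.3% and 65.1% as deposited, and 15.1% and 15.7% after size-factor scaling. Slc25a1, the citrate carrier that supplies lipid synthesis, had 51.3 and 101 CPM with forskolin, 235 and 187 CPM with cAMP, and 8.48 CPM in the control. Its change of forskolin against cAMP was -1.53 and did not pass as deposited (limma adjusted p = 0.176).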
